A study of Homo sapiens with 9 samples.

Results

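The genes described here are 10 genes of zinc handling, namely the metallothioneins MT2A, MT1E, MT1X and MT1F, the zinc exporter SLC30A1, the zinc importers SLC39A6, SLC39A7, SLC39A10 and SLC39A14, and the transcription factor MTF1. They were chosen by name, with results of these libraries already known, and are 10 of the 27615 genes in the longest deposited list. The study sequenced polyadenylated RNA of MDA-MB-231 cells, an established human triple-negative breast cancer line, in 9 libraries. Cells of 3 libraries received the solvent DMSO (vehicle), those of 3 received rimonabant, which blocks the cannabinoid receptor CB1, and those of 3 received TXX-1-10, a compound derived from rimonabant. How much of each compound was given, and for how long, is not given for these libraries in the sources used here. Nothing in the labels says that the replicates came from separate cultures, so the spread between them may be technical.

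Metallothioneins are small cytosolic proteins, rich in cysteine, that bind zinc and copper. When free zinc rises in a cell, the zinc-finger factor MTF1 binds metal response elements in the promoters of the metallothionein genes and of SLC30A1 and activates them, which makes this gene set a classical readout of metal exposure. SLC30A1 (ZnT1) carries zinc out across the plasma membrane, whereas the SLC39 (ZIP) family brings zinc into the cytosol, either from outside (SLC39A6, SLC39A10 and SLC39A14) or from the endoplasmic reticulum and Golgi (SLC39A7).

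The stretch before the transcription start is printed for 3 of the genes described. Among those searched, they had the most matches to the core of the metal response element. Chosen for their matches, they do not show what MTF1 target promoters look like in general. The core was searched as TGCACNC or TGCGCNC on both strands, in RefSeq promoter windows of 300 bases (250 before to 50 after the start, build GRCh38.p14). Each line gives the 250 bases before the start, 5′ to 3′ on the gene's strand, with core matches in capitals.
MT2A: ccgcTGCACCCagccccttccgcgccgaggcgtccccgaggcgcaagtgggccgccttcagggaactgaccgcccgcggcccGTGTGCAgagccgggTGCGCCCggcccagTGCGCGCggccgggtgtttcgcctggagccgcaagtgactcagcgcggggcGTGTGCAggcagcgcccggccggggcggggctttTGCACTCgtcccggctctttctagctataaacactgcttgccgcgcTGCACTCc
MT1X: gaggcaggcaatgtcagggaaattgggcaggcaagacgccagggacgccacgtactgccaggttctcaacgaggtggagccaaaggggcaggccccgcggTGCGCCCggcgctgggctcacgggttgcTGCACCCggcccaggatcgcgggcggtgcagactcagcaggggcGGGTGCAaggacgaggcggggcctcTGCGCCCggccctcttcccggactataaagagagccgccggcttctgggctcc
SLC30A1: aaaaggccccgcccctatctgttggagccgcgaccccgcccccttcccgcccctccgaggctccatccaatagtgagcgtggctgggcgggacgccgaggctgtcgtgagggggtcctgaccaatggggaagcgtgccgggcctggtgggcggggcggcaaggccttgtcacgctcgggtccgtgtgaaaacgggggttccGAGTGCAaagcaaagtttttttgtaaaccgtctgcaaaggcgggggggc
The MT2A stretch is chr16:56608334-56608583 on the plus strand, the MT1X stretch is chr16:56682220-56682469 on the plus strand, and the SLC30A1 stretch is chr1:211579162-211579411 on the minus strand.

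The whole window of MT2A held 8 core matches, of which 7 lie before the start. At least 8 were found in 0.0199% of the 35116 promoter windows in the RefSeq table. MT1X had 4 matches, all before the start, and at least 4 were found in 0.601% of windows. SLC30A1 had 2, at 49 bases before and 25 bases after the start, and at least 2 were found in 8.6% of windows. SLC39A6 had 1 match, and 29.6% of all windows had at least 1. SLC39A10 has 2 RefSeq windows, the first without a match and the second with 1 match, which begins 34 bases after the start. The SLC39A7 and MTF1 windows held 0 matches of these letters. In all, the windows of 7 of the 10 genes were searched. The RefSeq table held no window for MT1E and MT1F, and SLC39A14, on chromosome 8, was left out of the search. Outside the 10, the window of MT1H also held 8 matches, and those of MT1B, MT4 and SLC30A2 held 3 each. MT1H, MT1B and MT4 were in no list used here, so many matches are not particular to the genes described. A match is a description of the letters, not a shown binding site.

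Expression is given as the reads counted on each gene and as FPKM, which is the count scaled by gene length and by the library total. Those totals, recovered from counts, FPKM and lengths, were 17078370 to 17245379 in vehicle, 17477838 to 18813662 in rimonabant and 18394759 to 19277808 in TXX-1-10 libraries. Which reads they hold is not stated. Listed counts summed to more than the total in vehicle replicates 1 (17492638) and 3 (17383157). They summed to less in every other library, among them TXX-1-10 replicates 2 (16836181) and 3 (17493322). Fold changes and shares of the total rest on these totals, and small ones are the least certain. The deposited lists end at different points of an order from high to low counts, so a gene absent from a list is not a gene at 0. Hence 7 of the 10 genes are listed in all 9 libraries, SLC39A10 and MTF1 in the 8 other than rimonabant replicate 1, and MT1F in 7. Relative to the other libraries of their group, counts fell with gene length in rimonabant replicate 1 and TXX-1-10 replicate 3 (Spearman rho across genes of -0.69 in both). The remaining libraries of these groups had 0.48 to 0.67. Because each library was set against the rest of its group, a fall in any library makes the others appear to rise. These positive values therefore do not show an opposite trend. Of the markers of the line, VIM was at 224 to 329 FPKM and CD44 at 27.4 to 48.2 FPKM, ESR1 and PGR did not exceed 0.0314 and 0.0459 FPKM where listed, ERBB2 did not exceed 9.52 FPKM, and CDH1 had 0 reads in the 4 libraries that list it. Of genes of leukocytes, fibroblasts and endothelium, PTPRC did not exceed 0.0639, PECAM1 0.172 and COL1A1 0.798 FPKM.

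MT2A (chromosome 16, 56608199 to 56609497, plus strand, build GRCh38) was by far the most abundant of the 10 genes. Its level was 2506, 2522 and 2513 FPKM in vehicle cells, 3085, 2266 and 2675 FPKM in rimonabant cells, and 3369, 3253 and 4492 FPKM in TXX-1-10 cells. All 3 TXX-1-10 libraries lay above all vehicle and rimonabant libraries, while rimonabant and vehicle overlapped. Among the 4237 genes listed for all 9 libraries, MT2A ranked 12 by FPKM in each vehicle library, 11 to 14 in the rimonabant libraries and 4 in each TXX-1-10 library. The log2 fold change against vehicle was 0.56 ± 0.14 (SE) with TXX-1-10, or 1.47-fold, and 0.09 ± 0.14 with rimonabant. Within each compound the highest value came from the library in which counts fell with gene length. MT2A is among the short genes, with a length of 1299 bases behind its FPKM, and without these 2 libraries its log2 fold change was 0.40 with TXX-1-10 and -0.025 with rimonabant. With the length trend removed from every library and all 9 kept, it was 0.70 ± 0.05 with TXX-1-10 and 0.09 with rimonabant. MT2A was thus higher with TXX-1-10 in each of these fits, by an amount that depended on the treatment of the length trend.

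MT1E (chromosome 16, 56625475 to 56627112, plus strand), a metallothionein of the MT1 cluster, separated the compounds by direction. Its level was 585, 511 and 506 FPKM with vehicle, 318, 263 and 263 FPKM with rimonabant, and 978, 917 and 1187 FPKM with TXX-1-10. The 3 groups did not overlap, with rimonabant lowest, vehicle in the middle and TXX-1-10 highest. Against vehicle the log2 fold change was 0.94 ± 0.11 with TXX-1-10 (1.92-fold higher) and -0.93 ± 0.11 with rimonabant (1.90-fold lower), both close to 2-fold. The direct difference of TXX-1-10 from rimonabant was 1.87 ± 0.11 on the log2 scale, or 3.65-fold.

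MT1X (chromosome 16, 56682424 to 56684196, plus strand) was far higher in TXX-1-10 cells than in the others. It had 772, 812 and 797 reads with vehicle (25.5, 26.6 and 26.1 FPKM), 870, 680 and 743 reads with rimonabant (28.1, 20.4 and 22.6 FPKM), and 4176, 4196 and 5397 reads with TXX-1-10 (122, 129 and 165 FPKM). Vehicle and rimonabant overlapped, and the lowest TXX-1-10 library stood well above the highest of either. The log2 fold change was 2.41 ± 0.13 against vehicle (5.32-fold) and 2.55 ± 0.14 against rimonabant, and that of rimonabant against vehicle was -0.14 ± 0.14. By FPKM rank MT1X moved from 1633 to 1724 in vehicle libraries to 175 to 217 in TXX-1-10 libraries.

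MT1F (chromosome 16, 56657694 to 56660698, plus strand) was almost silent without TXX-1-10. It had 28 and 12 reads in vehicle replicates 1 and 3, 9 and 14 reads in rimonabant replicates 2 and 3, and 323, 244 and 302 reads with TXX-1-10. In FPKM these are 0.868 and 0.369, 0.253 and 0.400, and 8.87, 7.02 and 8.69. Vehicle and rimonabant overlapped near the lower end of what these libraries count, and TXX-1-10 lay far above both. In a fit of the 7 libraries that list it, MT1F was 13.2-fold higher with TXX-1-10 than with vehicle (log2 3.72 ± 0.26), and the rimonabant value was -0.91 ± 0.46, from 2 libraries a group. With its few reads in vehicle cells, the TXX-1-10 value rested on those libraries, at 3.23 without vehicle replicate 3 and 4.46 without vehicle replicate 1. MT1F passes a mean FPKM of 1 only through its TXX-1-10 libraries, so a difference was built into its selection for the fit.

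Summed over MT2A, MT1E and MT1X, metallothionein mRNA was at 3074 ± 37.7 FPKM with vehicle, 2980 ± 442 FPKM with rimonabant and 4870 ± 847 FPKM with TXX-1-10 (mean ± SD, n = 3). In reads these genes took 0.387%, 0.381% and 0.614% of the total behind the FPKM values. MT2A made up 75.4% to 90.4% of the summed FPKM in every library and so sets the sum. Within each compound the sum, MT1E and MT1X were highest in the library in which counts fell with gene length. The sum was 3431 FPKM in rimonabant replicate 1 (2549 and 2960 in the others) and 5844 FPKM in TXX-1-10 replicate 3 (4469 and 4299). The share of MT1E was 17.4% ± 1.23 with vehicle, 9.49% ± 0.737 with rimonabant and 21.2% ± 0.798 with TXX-1-10. The share of MT1X was 0.848% ± 0.0263, 0.794% ± 0.0275 and 2.85% ± 0.131 in the same order. Of these 3 genes, MT1X had the lowest vehicle level and the largest fold with TXX-1-10 (5.32-fold), and MT2A the highest level and the smallest fold (1.47-fold).

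**Figure D1:**
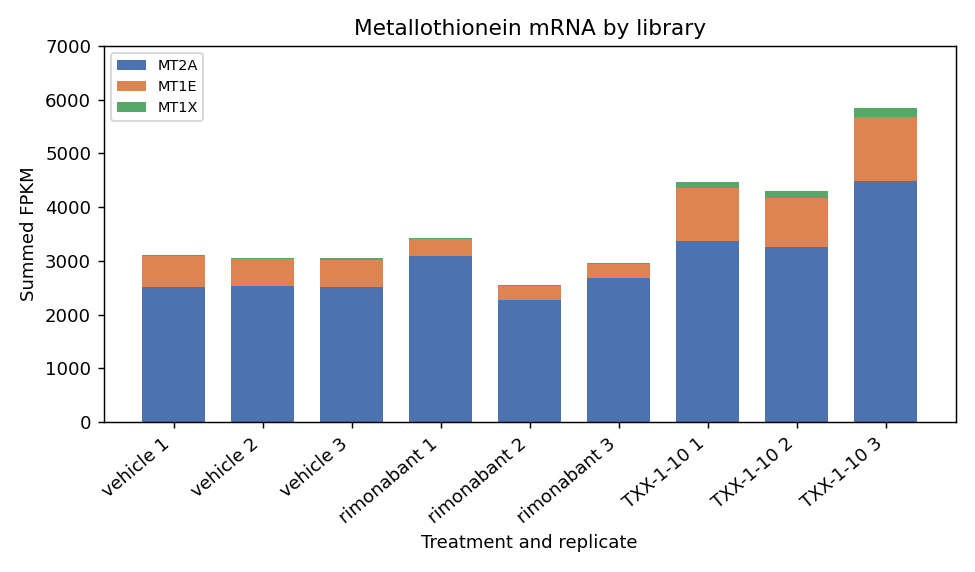
Summed FPKM of MT2A, MT1E and MT1X in each of the 9 libraries, with 1 bar per library starting at 0 and a colour per gene. The TXX-1-10 bars average 4870 FPKM against 3074 FPKM for vehicle, and the orange MT1E part is smallest in the rimonabant bars.

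The metallothionein genes lie side by side on chromosome 16, MT2A to MT1X covering 76 kb, and their reads are partly hard to assign. Of the distinct windows of 50 bases in their annotated transcripts, 3.02% for MT2A, 7.1% for MT1E, 1.22% for MT1F and 18.3% for MT1X also occur in another gene. With windows of 100 bases this was 0% for MT2A, MT1E and MT1F and 11.3% for MT1X, all of it shared with the transcript AC026461.1, so the MT1X values are the least certain in this respect. The lengths behind the FPKM of MT2A and MT1X equal their whole gene spans, introns included, so their FPKM understates the level over the spliced mRNA.

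Of the other metallothioneins MT1A, in the same cluster, differed in the opposite direction from MT1X and MT1F. MT1A had 94 and 88 reads with vehicle, 36 and 38 with rimonabant and 44, 39 and 47 with TXX-1-10 in the 7 libraries that list it. MT1A fell with TXX-1-10 (log2 -1.19 ± 0.16, adjusted p = 4.83e-05) and with rimonabant (-1.42 ± 0.19, adjusted p = 0.000233) by edgeR's quasi-likelihood test over all genes of the 7-library fit. Its difference between the compounds was 0.23 ± 0.19 (adjusted p = 0.354). MT1M had 2 reads in vehicle replicate 1, 0 in rimonabant replicate 3, and 21 and 14 in TXX-1-10 replicates 2 and 3, the only libraries that list it. Of the remaining 6 genes of this list, MT1B, MT1G, MT1H, MT1HL1, MT3 and MT4, none was in any list used here. The 9 metallothionein pseudogenes were listed in at most 5 libraries each and were not tested.

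The 3 unrelated genes tested within 150 kb of the cluster, looked at after the values were known, all passed the adjusted p with TXX-1-10 and differed in direction. At any fold 74.4% of all genes passed on 9 libraries and 75.3% on 8, so nothing about the locus is read from this. OGFOD1, a prolyl hydroxylase of a ribosomal protein, fell by 0.22 ± 0.05 (SE) on the log2 scale with TXX-1-10 (edgeR adjusted p = 0.00277). BBS2, a subunit of a complex of the primary cilium, rose by 0.27 ± 0.07 (adjusted p = 0.00461), and NUP93, a nuclear pore protein, had -0.65 ± 0.05 (adjusted p = 1.96e-06). None of them reached 2-fold.

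SLC30A1 (chromosome 1, 211571568 to 211578742, minus strand), the zinc exporter, had the largest TXX-1-10 fold change of the 10 genes relative to its standard error. It had 523, 479 and 488 reads with vehicle, 649, 753 and 720 with rimonabant, and 4320, 3995 and 4037 with TXX-1-10. In FPKM these are 5.59, 5.07 and 5.18, then 6.78, 7.31 and 7.10, then 40.9, 39.7 and 40.1. The 3 groups did not overlap, and TXX-1-10 stood far above rimonabant. SLC30A1 was 7.62-fold higher with TXX-1-10 than with vehicle (log2 2.93 ± 0.05), 1.34-fold higher with rimonabant (0.42 ± 0.06), and 5.69-fold higher with TXX-1-10 than with rimonabant (2.51 ± 0.05). Without the 2 libraries in which counts fell with gene length the TXX-1-10 value was again 2.93.

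SLC39A10 (chromosome 2, 195575977 to 195737702, plus strand), a plasma-membrane zinc importer, was lower with both compounds. It had 1495, 1521 and 1433 reads with vehicle, 781 and 761 with rimonabant, and 344, 316 and 299 with TXX-1-10. In FPKM these are 12.7, 12.8 and 12.0, then 6.002 and 5.938, then 2.58, 2.48 and 2.35. The groups formed 3 separate steps. SLC39A10 was 5.05-fold lower than vehicle with TXX-1-10 (log2 -2.34 ± 0.06) and 2.09-fold lower with rimonabant (-1.06 ± 0.06), and the compounds differed by -1.27 ± 0.07. The exporter and this importer therefore differed in opposite directions in the TXX-1-10 cells, and the importer alone had a difference of 2-fold in the rimonabant cells.

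**Figure D2:**
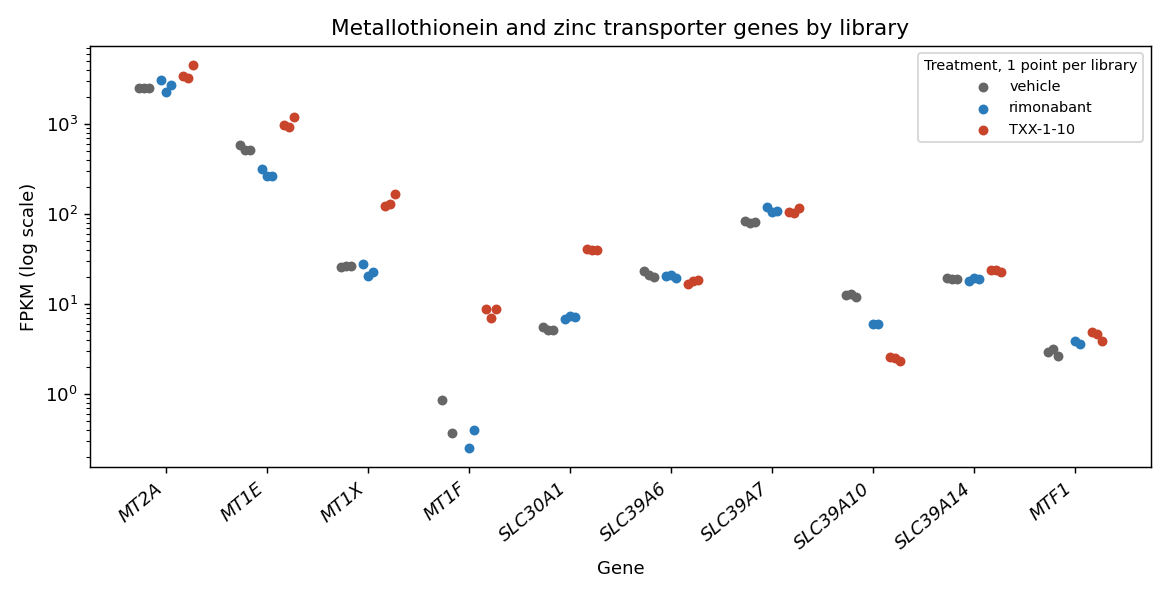
FPKM of each of the 10 genes on a log axis, with 1 point per library that lists the gene, coloured by treatment. TXX-1-10 points stand apart from the other treatments for MT1X, MT1F and SLC30A1 (upwards) and SLC39A10 (downwards), and the 3 treatments form separate steps for MT1E and SLC39A10.

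The other importers were much closer together. SLC39A6 (chromosome 18, 36108532 to 36129385, minus strand), a plasma-membrane importer described as an oestrogen-responsive gene in breast cancer, was at 22.9, 20.9 and 19.8 FPKM with vehicle, 20.2, 20.7 and 19.4 FPKM with rimonabant, and 16.6, 18.0 and 18.4 FPKM with TXX-1-10. Its TXX-1-10 values lay below all others by a narrow margin, with a log2 fold change of -0.26 ± 0.07 against vehicle, and rimonabant overlapped vehicle (-0.08 ± 0.07). SLC39A7 (chromosome 6, 33200445 to 33204439, plus strand), which releases zinc from the endoplasmic reticulum, was at 82.5, 78.9 and 80.5 FPKM with vehicle, 118, 105 and 107 FPKM with rimonabant, and 104, 102 and 115 FPKM with TXX-1-10. It was higher than vehicle with both compounds, by 0.41 ± 0.06 with TXX-1-10 and 0.45 ± 0.06 with rimonabant on the log2 scale, and the compounds overlapped each other. Their difference was -0.04 ± 0.06, and it was 0.046 under TMM or DESeq2 scaling, so its sign depended on the scaling. SLC39A14 (chromosome 8, 22367249 to 22434129, plus strand), which carries iron and manganese as well as zinc, was at 19.6, 19.0 and 19.0 FPKM with vehicle, 17.9, 19.5 and 18.9 FPKM with rimonabant, and 23.7, 23.7 and 22.7 FPKM with TXX-1-10. The TXX-1-10 libraries were above all others (log2 0.29 ± 0.05 against vehicle), and rimonabant overlapped vehicle (-0.03 ± 0.05).

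MTF1 (chromosome 1, 37809567 to 37859620, minus strand), the metal-sensing activator itself, had a modest difference of its mRNA. It was at 2.90, 3.13 and 2.66 FPKM with vehicle, 3.88 and 3.63 FPKM with rimonabant, and 4.89, 4.59 and 3.89 FPKM with TXX-1-10. The treatments did not overlap, although the lowest TXX-1-10 library was almost level with the highest rimonabant library. The log2 fold change was 0.62 ± 0.09 with TXX-1-10 and 0.38 ± 0.11 with rimonabant. MTF1 activity, which zinc regulates through the protein, is not measured by these values.

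By FPKM, the order of the 10 genes in vehicle cells was MT2A, MT1E, SLC39A7, MT1X, SLC39A6, SLC39A14, SLC39A10, SLC30A1, MTF1 and MT1F. SLC39A6 at 19.8 to 22.9 FPKM and SLC39A14 at 19.0 to 19.6 FPKM are neighbours whose ranges lie close together, and the ranges of the other neighbours lie further apart. In TXX-1-10 cells MT1X at 122 to 165 FPKM stood above SLC39A7 at 102 to 115 FPKM, and SLC30A1 at 39.7 to 40.9 FPKM stood above SLC39A14 and SLC39A6. SLC39A10 at 2.35 to 2.58 FPKM became the lowest of the 10, under MTF1 and MT1F.

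Counted together, 4 of the 10 genes differed at least 2-fold between TXX-1-10 and vehicle at an adjusted p under 0.05, MT1X, MT1F and SLC30A1 upwards and SLC39A10 downwards. Of all genes tested on 9 libraries, 11.8% met these thresholds in either direction, 12.7% on 8 libraries and 14.0% on 7. For rimonabant against vehicle 1 of the 10 did, SLC39A10 downwards, beside 1.13%, 1.49% and 2.12% of all genes. For TXX-1-10 against rimonabant 5 of the 10 did, MT1E, MT1X, MT1F and SLC30A1 upwards and SLC39A10 downwards, beside 5.93%, 6.41% and 6.96%. The genes were selected with these contrasts in view, so the counts describe them and nothing is read from their excess. MT1F passed the filter on mean FPKM only through its TXX-1-10 libraries. Its part in the TXX-1-10 counts, here and in the overlap counts that follow, was therefore built in. Replicates of TXX-1-10 and vehicle did not overlap for any of the 10 genes, and the same held for 78.7% of all genes on 9 libraries, 76.4% on 8 and 77.6% on 7. Rimonabant and vehicle did not overlap for 5 of the 10, beside 61.1%, 72.4% and 74.5% of all genes, and the 2 compounds did not overlap for 9 of the 10, beside 63.6%, 71.4% and 70.1%. The comparisons with vehicle share the vehicle libraries. The median log2 fold change of the 10 genes was 0.59 with TXX-1-10 and -0.05 with rimonabant, beside -0.09 and -0.02 over all genes on 9 libraries.

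**Figure D3:**
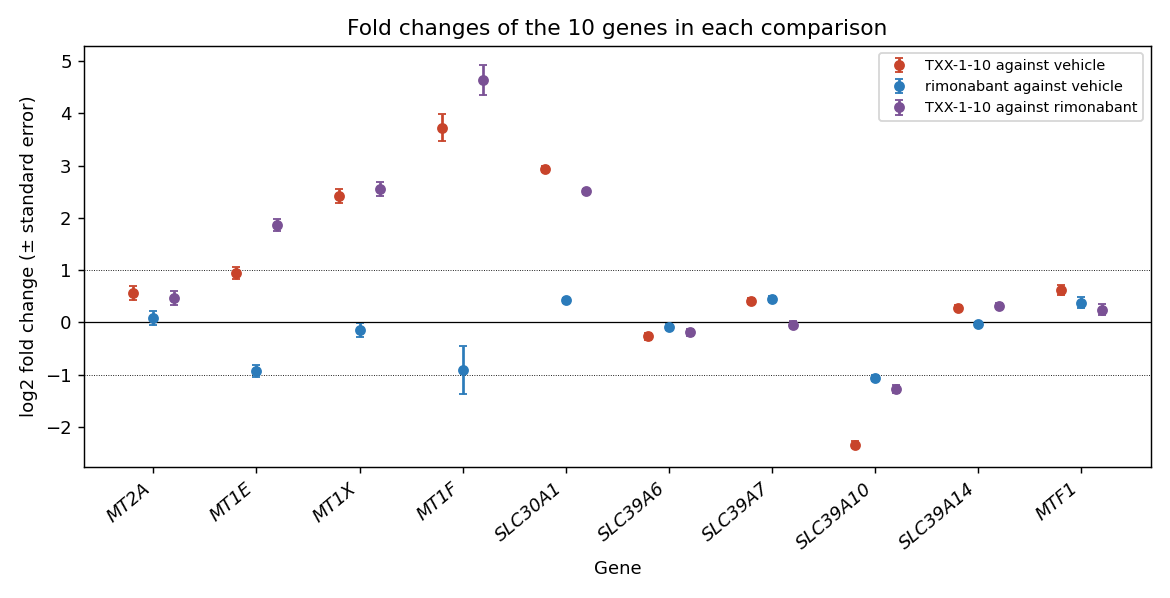
The log2 fold changes of the 10 genes, with standard errors as bars, in the 3 comparisons. Dotted lines mark 2-fold. With TXX-1-10 MT1F (3.72), SLC30A1 (2.93) and MT1X (2.41) lie above the upper line and SLC39A10 (-2.34) below the lower one, and with rimonabant MT1E (-0.93) and SLC39A10 (-1.06) lie lowest among the genes listed for more than 7 libraries.

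Beyond the 10 genes, 64 genes of metal handling in 6 lists (other metallothioneins, metallothionein pseudogenes, the remaining SLC30 and SLC39 genes, other zinc-handling genes and copper-handling genes) show how far the pattern reached. Of these, 29 were tested on 9 or 8 libraries, in edgeR's quasi-likelihood fit with Benjamini-Hochberg adjustment over all genes, and 11 were in no list used here. With TXX-1-10 against vehicle 10 rose, 9 fell and 10 did not pass at an adjusted p under 0.05 and any fold, with a median log2 fold change of 0.05. Of all genes, 74.4% passed this looser threshold on 9 libraries, 75.3% on 8 and 68.5% on 7, a larger share than 19 of 29. At 2-fold 3 of the 29 rose and 0 fell, a share near the 11.8% and 12.7% of all genes on 9 and 8 libraries. With rimonabant 8 rose, 7 fell and 14 did not pass, beside 48.9%, 46.5% and 35.0% of all genes, and 0 reached 2-fold under edgeR or DESeq2. Between the compounds 8 were higher and 9 lower with TXX-1-10, beside 64.5%, 60.6% and 55.3% of all genes.

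Among the other SLC30 genes 4 were tested on 9 or 8 libraries, of which 1 rose and 1 fell with TXX-1-10. Of all genes, 74.4% on 9 libraries and 75.3% on 8 passed at any fold. SLC30A7, which loads zinc into the early secretory pathway, rose with TXX-1-10 (log2 0.44 ± 0.06, adjusted p = 3.29e-05) and with rimonabant (0.33 ± 0.07, adjusted p = 0.00188). SLC30A9 fell with both, by 0.46 and 0.18 on the log2 scale (adjusted p = 8.39e-06 and 0.00973). SLC30A4, listed in 7 libraries, rose by 0.89 ± 0.12 with TXX-1-10 (adjusted p = 4.23e-05) and by 0.63 ± 0.13 with rimonabant (adjusted p = 0.00358). None of these exporters reached 2-fold.

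Of the other SLC39 genes 6 were tested, of which 1 rose and 3 fell with TXX-1-10, beside 74.4% and 75.3% of all genes passing on 9 and 8 libraries. The intestinal-type importer SLC39A4 fell with both compounds (log2 -0.69 ± 0.08, adjusted p = 7.01e-06 with TXX-1-10, and -0.56 ± 0.09, adjusted p = 0.000401 with rimonabant). SLC39A3 fell with TXX-1-10 (-0.53 ± 0.11, adjusted p = 0.000558), and its rimonabant value was -0.02 ± 0.11 (adjusted p = 0.906). SLC39A8, an importer of zinc and manganese, went in opposite directions, falling with TXX-1-10 (-0.36 ± 0.06, adjusted p = 7.96e-05) and rising with rimonabant (0.25 ± 0.06, adjusted p = 0.00496). The direct difference of the compounds for SLC39A8 was -0.61 ± 0.06 (adjusted p = 3.47e-06).

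Among the 9 tested genes of the zinc-handling list, 6 rose and 0 fell with TXX-1-10, a share below the 74.4% and 75.3% of all genes that passed at any fold on 9 and 8 libraries. TRPM7, a divalent cation channel fused to a kinase, had 3.88, 3.73 and 3.93 FPKM with vehicle, 4.25, 5.66 and 5.30 FPKM with rimonabant, and 9.53, 8.90 and 7.31 FPKM with TXX-1-10. The TXX-1-10 libraries stood above all others, and TRPM7 rose by 1.16 ± 0.12 on the log2 scale (adjusted p = 8.18e-06). TMC6 and TMC8, which form a complex with SLC30A1 at the endoplasmic reticulum, separated the compounds by direction. TMC8 had 2.83, 2.62 and 2.63 FPKM with vehicle, 2.33 and 2.02 FPKM with rimonabant, and 5.80, 6.22 and 5.69 FPKM with TXX-1-10. It rose by 1.13 ± 0.08 with TXX-1-10 (adjusted p = 8.33e-08) and fell by 0.31 ± 0.10 with rimonabant (adjusted p = 0.0241). TMC6 rose by 0.79 ± 0.06 (adjusted p = 1.45e-07) and fell by 0.46 ± 0.07 (adjusted p = 0.000328) in the same comparisons. The direct differences of the compounds were 1.44 ± 0.10 for TMC8 (adjusted p = 9.84e-08) and 1.25 ± 0.07 for TMC6 (adjusted p = 2.78e-08), the only pathway genes past 2-fold there. TMC6 and TMC8 are neighbouring genes, so reads at their shared border can be split between them.

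Of the 10 copper-handling genes tested on 9 or 8 libraries, 2 rose and 5 fell with TXX-1-10. That share is near the 74.4% and 75.3% of all genes that passed at any fold. The copper importer SLC31A1 had 13.2, 13.1 and 12.3 FPKM with vehicle, 20.2, 19.5 and 19.7 FPKM with rimonabant, and 27.8, 27.2 and 28.6 FPKM with TXX-1-10. The 3 treatments formed separate steps, and SLC31A1 rose by 1.11 ± 0.05 with TXX-1-10 (adjusted p = 1.14e-08) and by 0.62 ± 0.05 with rimonabant (adjusted p = 7.24e-06). COX17, a copper chaperone of mitochondria, fell by 0.63 ± 0.10 with TXX-1-10 (adjusted p = 8.95e-05), and SOD1, which needs both copper and zinc, fell by 0.38 ± 0.09 (adjusted p = 0.0036). The exporter ATP7A, listed in 7 libraries, rose by 0.59 ± 0.13 (adjusted p = 0.00131).

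**Figure D4:**
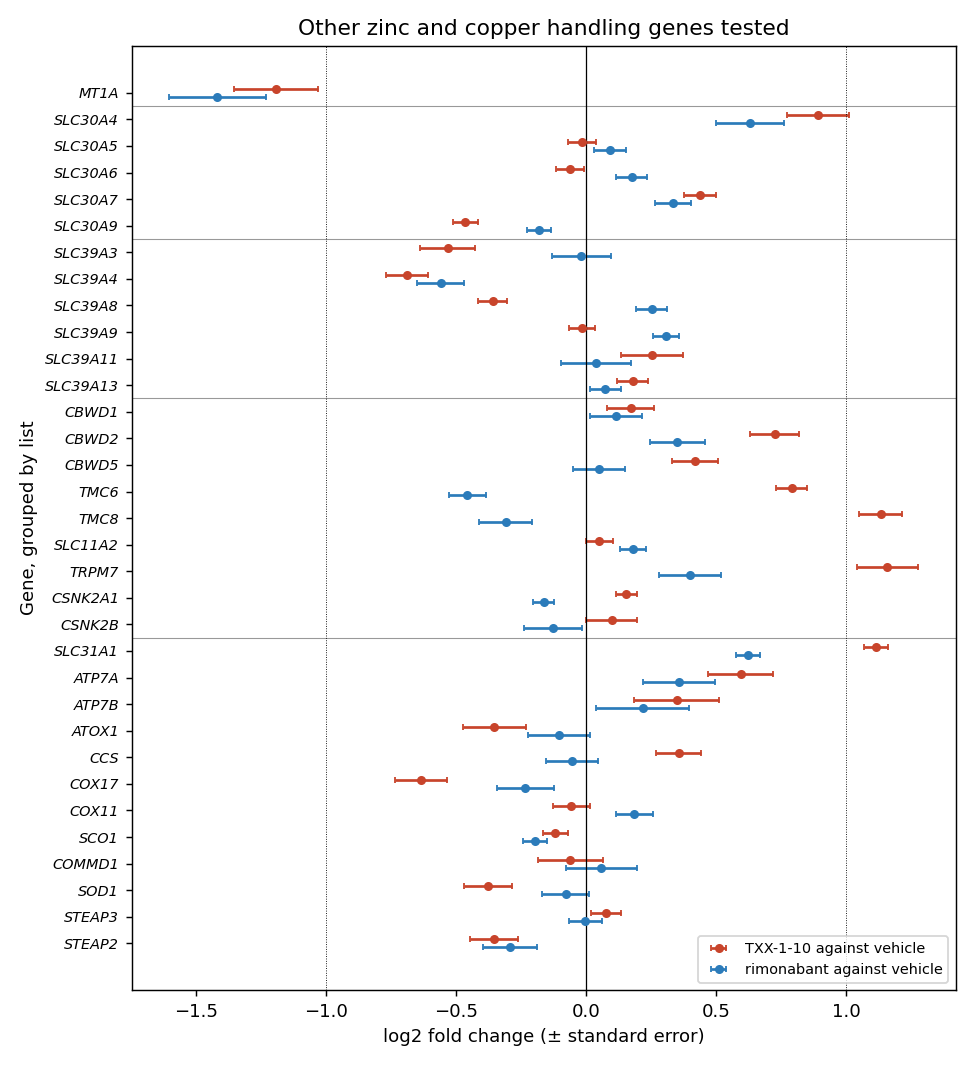
The log2 fold changes with standard errors of 33 other zinc and copper handling genes, TXX-1-10 against vehicle in red and rimonabant against vehicle in blue. Grey lines separate the gene lists and dotted lines mark 2-fold. TRPM7, TMC8 and SLC31A1 pass 2-fold upwards with TXX-1-10, MT1A passes it downwards with both compounds, and TMC6 and TMC8 lie on opposite sides of 0.

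The tested genes whose level followed that of 2 of the 10 genes most closely were found by the root mean square difference of log2 profiles, each centred on its mean. For MT2A over 9 libraries the closest were VPS28 (0.076), RPL13A (0.0775), EMP3 (0.081) and MAD1L1 (0.0816). For SLC39A10 over 8 libraries they were FAM83D (0.0805), AL596244.1 (0.0905), ADGRF5 (0.0945), LPAR1 (0.101) and CRIM1 (0.103). None of the 10 genes was among them. The profiles were not corrected for the length trend, so a shared response to that trend also makes genes appear close.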

How the data were processed

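RNA was selected with oligo(dT) and sequenced on an Illumina platform. Per the labels the submitters' processing notes name HISAT2 2.0.5 and featureCounts 1.5.0-p3. The genome build and strand setting are not given in the sources used here, and the coordinates match GENCODE 29 on GRCh38. The authors deposited an unnormalized count per gene and library and an FPKM value made from it. The total behind the FPKM values was recovered and used as library size. Counts were fitted with edgeR 4.0.16 (glmQLFit, glmQLFTest) in R 4.3.3 over genes with a mean FPKM of at least 1, namely 4236 genes on 9 libraries, 9369 on 8 (without rimonabant replicate 1) and 11200 on 7 (also without vehicle replicate 2, added after the data were seen). A gene takes its value from the fit with the most libraries. Called genes have a log2 fold change of at least 1 in size and a Benjamini-Hochberg adjusted p under 0.05. Standard errors were derived from the F statistic and are approximate. The members and gene lists were chosen with earlier results of these data known, so the 10 genes carry no p. The adjusted p printed for other list genes and for neighbours of the cluster does not account for how those genes were chosen. All 10 genes were named. Other list genes could be named where they changed or their groups did not overlap, and not all such genes were. CBWD2, for example, was left out although its TXX-1-10 and vehicle libraries did not overlap. An unnamed gene is therefore not a gene without a difference. MT1M and the neighbours of the cluster were added after their values were seen. The 9-library edgeR fit was tested on counts simulated without a length trend, and the 8- and 7-library fits were not tested in this way. Alternatives used DESeq2 1.42.0, limma 3.58.1, TMM, other filters, a length correction and libraries left out. Depth limits genes with few reads. One gene that the rule for similar profiles would name is not reported here.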

Additional observations from a re-analysis of the deposited data

How the results depend on the processing

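Of 492 values of the 10 genes under other settings, 473 kept their direction and side of the thresholds, and 23 of the 30 fold changes did so under every setting tried for them. MT1E against vehicle ran from 0.83 to 1.09 (log2) with TXX-1-10, reaching 2-fold in 6 settings, among them TMM (1.04) and DESeq2 (1.04), and from -1.02 to -0.85 with rimonabant. SLC39A10 with rimonabant was -0.95 under limma on log2(FPKM + 1), which shrinks low genes, and -1.06 in the reported fit. MT1F with rimonabant ran from -1.40 to -0.18, and reached 2-fold without vehicle replicate 3. Signs turned for values near 0. MT2A with rimonabant was -0.025 without the 2 libraries with a length trend, and ran from -0.025 to 0.20 with libraries left out in turn. SLC39A7 between the compounds was 0.046 under TMM and DESeq2 and 0.11 with the length trend removed, with or without the block, and ran from -0.095 to 0.013 with libraries left out. SLC39A14 with rimonabant was 0.0014 without the 2 libraries with a length trend and ran from -0.057 to 0.0013 with libraries left out. The ratio of summed metallothionein FPKM of rimonabant to vehicle ran from 0.896 to 1.04 with libraries left out, the highest without rimonabant replicate 2. Limma called 76 genes in place of 140 for rimonabant on 8 libraries, and 1 pathway gene in place of 3 for TXX-1-10. The 7-library fit added 1 pathway gene (MT1A) to 0 for rimonabant, and a mean FPKM of at least 5 left 1 of 2 between the compounds. The causes were not tested. TMM moved the median of all genes for TXX-1-10 against vehicle from -0.09 to 0.00. Deviations of same-numbered replicates from their group means correlated at -0.08 to 0.04 between either compound and vehicle. Between the compounds the correlations were -0.79, 0.83 and -0.61 for replicates 1, 2 and 3. The deviations still held the length trend of the compound libraries, so they cannot show whether the replicates were paired. With the replicate block 501 genes were called for TXX-1-10 against 500, and SLC30A1 stayed at 2.93.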
